A study of Rattus norvegicus with 12 samples.

Results

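The genes examined encode the subunits of voltage-gated calcium channels (CaV) and voltage-gated sodium channels (NaV). They were taken by gene symbol, as every α1, α2δ, β and γ gene of the calcium channels and every α and β gene of the sodium channels, which gave 40 of the 22431 genes in the table. Of the 40, 26 are calcium channel genes (10 α1, 4 α2δ, 4 β and 8 γ) and 14 are sodium channel genes (10 α and 4 β). They were read in RNA of the prefrontal cortex from 12 young adolescent rats, 1 library each, all with the genotype label WT. The 4 saline animals served as controls, 4 animals had postnatal oxycodone exposure (PNO) and 4 had in utero oxycodone exposure (IUO). Oxycodone, an opioid agonist, was given by oral gavage at 15 mg/kg, and the labels place the exposure before pregnancy, or after it up to postnatal day 21, without tying a window to a group. A group drew on 2 dams, with 2 animals from each. No label ties an animal to its dam, so the p-values below measure the spread between 12 animals of which some are littermates, and they may be too small. Sex was not given in the labels used here.

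A voltage-gated channel is built around a pore-forming α subunit that opens when the membrane depolarises. In calcium channels the α1 subunit sets the current type, the cytosolic β and the extracellular α2δ subunits bring the pore to the membrane, and the γ genes encode small membrane proteins of which most act as TARPs, partners that carry AMPA-type glutamate receptors to synapses. In sodium channels the α subunit drives the upstroke of the action potential at the axon initial segment, and the β subunits tune its gating and bind adhesion molecules. In the cortex these genes set firing, transmitter release and calcium entry in excitatory neurons and interneurons.

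Promoter windows of 300 bases around an annotated start, most of them upstream of it, were found in RefSeq (build GRCr8) for 27 of the 40 genes, 30 windows in all. They are shown for 4 genes whose values the results turn on. Cacna1c and Cacna1d encode L-type calcium channel pores whose PNO libraries all lay above the saline libraries. Cacng5, a TARP gene, had the largest PNO difference among the genes whose groups did not overlap, and Scn4b, a sodium channel β gene, had the widest spread between libraries. The Cacna1c window lies at chr4:154051699-154051998 on the minus strand, that of Cacna1d at chr16:5527500-5527799 on the minus strand, that of Cacng5 at chr10:93336618-93336917 on the minus strand and that of Scn4b at chr8:54343623-54343922 on the plus strand. Each sequence runs 5′ to 3′ along the gene's strand, and capitals mark every match on either strand to 4 motifs. The motifs were an E-box (CAGCTG), the GC box (GGGCGG), the core of the cAMP response element (TGACG) and the CCAAT box, whose letters are its name.
Cacna1c: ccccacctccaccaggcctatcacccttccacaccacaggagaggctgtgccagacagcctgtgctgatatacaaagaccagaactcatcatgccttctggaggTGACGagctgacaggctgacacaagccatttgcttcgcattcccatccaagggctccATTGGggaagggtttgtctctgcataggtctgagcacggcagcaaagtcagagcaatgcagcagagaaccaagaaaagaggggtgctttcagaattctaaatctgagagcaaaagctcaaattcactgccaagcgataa
Cacna1d: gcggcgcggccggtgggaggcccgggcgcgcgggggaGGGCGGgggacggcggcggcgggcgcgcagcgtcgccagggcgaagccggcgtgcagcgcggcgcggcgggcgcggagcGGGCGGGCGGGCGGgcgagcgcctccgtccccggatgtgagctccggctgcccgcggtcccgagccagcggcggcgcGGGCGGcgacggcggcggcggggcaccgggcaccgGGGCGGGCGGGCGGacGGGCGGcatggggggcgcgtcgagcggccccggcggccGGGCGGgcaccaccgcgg
Cacng5: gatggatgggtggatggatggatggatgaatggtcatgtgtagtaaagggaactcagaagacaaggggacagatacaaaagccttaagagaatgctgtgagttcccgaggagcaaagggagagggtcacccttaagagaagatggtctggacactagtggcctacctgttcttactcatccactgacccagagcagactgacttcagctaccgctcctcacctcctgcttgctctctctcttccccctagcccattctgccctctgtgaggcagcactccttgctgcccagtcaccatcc
Scn4b: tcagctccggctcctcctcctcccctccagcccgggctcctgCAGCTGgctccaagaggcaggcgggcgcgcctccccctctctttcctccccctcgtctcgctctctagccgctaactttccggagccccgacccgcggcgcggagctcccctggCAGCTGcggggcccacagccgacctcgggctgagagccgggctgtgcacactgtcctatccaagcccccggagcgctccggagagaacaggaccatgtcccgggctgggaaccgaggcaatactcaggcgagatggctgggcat

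The 4 windows differed in composition. Cacna1d was 88.7% G or C with 10 GC boxes, some of which overlap, Scn4b was 70.0% G or C with 2 E-boxes, Cacna1c was 51.7% with 1 CCAAT box and 1 TGACG, and Cacng5 was 53.0% with none of the 4 motifs. Over the member windows the median was 62.3%, against 51.7% over all 33469 windows of the reference. A GC box occurred in 14 of the 27 genes (33.1% of all windows hold one), an E-box in 8 (15.1%), a CCAAT box in 5 (37.5%) and TGACG in 5 (21.2%). A gene with more than 1 window was counted once, which raises its chance of a match. The E-box reads the same on both strands, and overlapping matches of a motif were each counted. The windows lie in GRCr8 and were not set against the positions of the deposited table.

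The 40 genes lie on 11 chromosomes in the positions printed in the deposited table, whose build is not given in the sources used here. Chromosomes 3, 8 and 10 carry 7 each. Cacna1c (ENSRNOG00000007090) spans chr4:151764138-152379648, Cacna1d (ENSRNOG00000013147) chr16:5228306-5668215, Cacna1h (ENSRNOG00000033893) chr10:14390113-14448376 and Cacng5 (ENSRNOG00000003288) chr10:92829196-92869614, all on the minus strand. Scn4b (ENSRNOG00000026679) spans chr8:45446215-45462292 on the plus strand. Several are close neighbours with very different levels. Scn2b and Scn4b lie 8.45 kb apart on chromosome 8, on the same strand. Cacng6, Cacng8 and Cacng7 lie in a row on chromosome 1 with gaps of 7.99 and 21.3 kb, and their mean FPKM (fragments scaled to transcript length and library size) was 0.402, 45.5 and 85.8. Cacng1, Cacng4 and Cacng5 form a row on chromosome 10 with gaps of 18.0 and 83.1 kb and mean FPKM of 0.121, 20.8 and 3.44. On chromosome 3, Scn1a (mean FPKM 10.7), Scn9a (0.167) and Scn7a (0.0499) are neighbours. The FPKM followed transcript lengths that were nearly fixed for each gene across libraries, so a change of isoform would not show in these values.

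A library held 49227533 to 60672246 counts. Testing was limited to genes whose FPKM averaged 0.5 or more, which kept 14170 genes and 29 of the 40 members. Among the 11 below it were Cacna1f, Cacna1s, Cacna2d4, Cacng1, Cacng6, Scn4a, Scn7a, Scn9a, Scn10a and Scn11a. Cacna1f is the L-type pore of the retina and Cacna1s that of skeletal muscle. Cacng1 and Cacng6 are the γ subunits of muscle calcium channels. Scn4a is the skeletal muscle sodium channel, and Scn9a, Scn10a and Scn11a are those of peripheral sensory neurons. Just inside the limit stood Cacna1e with a mean FPKM of 0.723, and just outside it stood Cacng6 with 0.402.

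The cortical label was checked on Slc17a7, the vesicular glutamate transporter of cortical excitatory neurons. It read 1339.6 (IUO 4) to 2435 CPM (counts scaled to library size) over the 12 libraries. Neurod6, another marker of these neurons, was lower in every exposed library: 89.0 to 112 CPM in saline, 66.8 to 82.7 in PNO and 61.9 to 86.0 in IUO. The summed list of 11 cortical markers overlapped, at 2904 to 3813, 2640 to 3372 and 3133 to 3281 CPM. The part of these cortical markers in the differences below was not tested. Markers of neighbouring regions varied widely within groups. The striatal markers tested (11 of 13 listed) had a mean log2 CPM of 4.72 (saline 2), 4.89 (IUO 1), 6.02 (IUO 2) and 6.52 (PNO 2), against 3.54 to 3.69 in the other 8 libraries. The 9 olfactory bulb markers had a mean of 4.22 (PNO 1), 4.05 (PNO 3), 4.30 (PNO 4) and 4.86 (IUO 3), against 1.46 to 2.05 in the others. None of either list was at 0 throughout. The summed striatal list spanned 325 to 702 CPM in saline, 321 to 2038 in PNO and 350.3 to 1573 in IUO, and the summed bulb list 60.1 to 69.5, 70.7 to 304 and 47.3 to 385. Their part in the differences described below was not tested beyond the fits named there. In bulk tissue, fewer cells of a type and less RNA per cell cannot be told apart.

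On the FPKM scale, which allows levels of different genes to be set side by side, several auxiliary subunits stood far above the highest pores. Cacnb3, the main calcium channel β gene, had 99.9 ± 13 FPKM in saline (SD, n = 4), Cacng7, a type II TARP, 84.9 ± 10, and Cacng3, a type I TARP, 78.5 ± 14. The saline libraries of Cacng7 and Cacng3 overlapped. The highest pores were Scn2a, the sodium channel of excitatory axons, with 17.9 ± 1.4, and Cacna1a, the P/Q-type calcium channel of presynaptic terminals, with 16.1 ± 0.60. Cacna1c was low among the tested pores, at 0.957 ± 0.15 FPKM, and only Cacna1e was lower, at 0.603 ± 0.24.

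**Figure D1:**
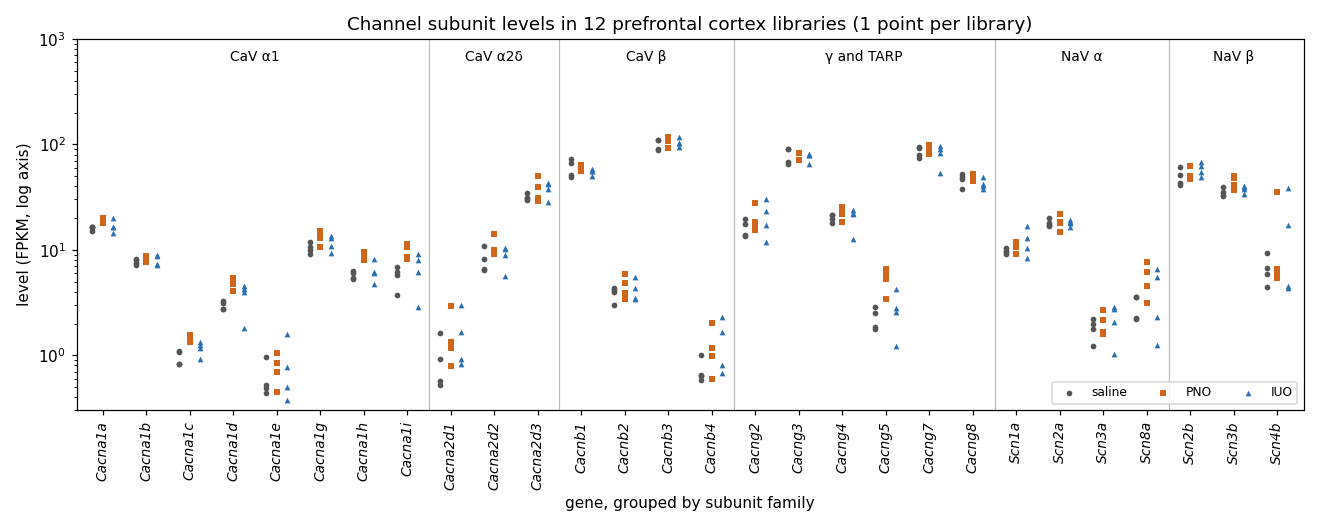
FPKM (log axis) of the tested channel genes reported here in each of the 12 libraries, 1 point per library, ordered by subunit family. Cacnb3 lies between 88.7 and 118 FPKM, the CaV α1 and NaV α pores lie below most β and γ genes, and Scn4b, Cacng5 and Scn8a show the spread between libraries described in the text.

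In the families described here, 1 or 2 genes held most of the summed FPKM (shares are means over 12 libraries). Scn2a made up 51.4% of the NaV α sum, Scn1a, the channel of fast-spiking interneurons, 30.1%, Scn8a, the channel of mature initial segments and nodes, 11.0%, and Scn3a, the channel of the embryonic brain, 5.59%. The 6 other NaV α genes were each below 0.9% on average. Among the pores of calcium channels the spread was wider. Cacna1a held 30.3%, the T-type gene Cacna1g 20.6%, the N-type gene Cacna1b 14.2%, the T-type genes Cacna1i and Cacna1h 12.3% and 12.1%, and Cacna1d 6.52%. Cacna2d3 held 77.1% of the α2δ sum, Cacnb3 and Cacnb1 62.0% and 34.8% of the β sum, and Cacng7, Cacng3 and Cacng8 33.9%, 30.7% and 18.1% of the γ sum.

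The leading gene of each of these families was the same in all 12 libraries except among the γ genes, where Cacng3 led in IUO 4 with 37.0% against 24.8% for Cacng7. Scn8a varied widely in share. It took 10.3%, 6.97%, 10.3% and 7.38% of the NaV α sum in saline 1 to 4, 14.2%, 19.5%, 10.7% and 13.1% in PNO 1 to 4, and 15.5%, 12.6%, 7.76% and 4.00% in IUO 1 to 4. Every PNO share of Scn8a lay above every saline share, while its IUO shares spanned both. Such a separation was not particular to Scn8a, which was picked after its values were seen. Among the tested genes, the PNO shares of Cacna1i and Cacng5 also lay wholly above saline. Those of Scn2a, Cacna1a and Cacna1b lay wholly below. Shares within a family are tied to the same sum, so these separations are not independent. The share of Scn2a was lowest in IUO 2, at 41.6%, where that of Scn1a was highest, at 38.1%. No test was made on shares.

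**Figure D2:**
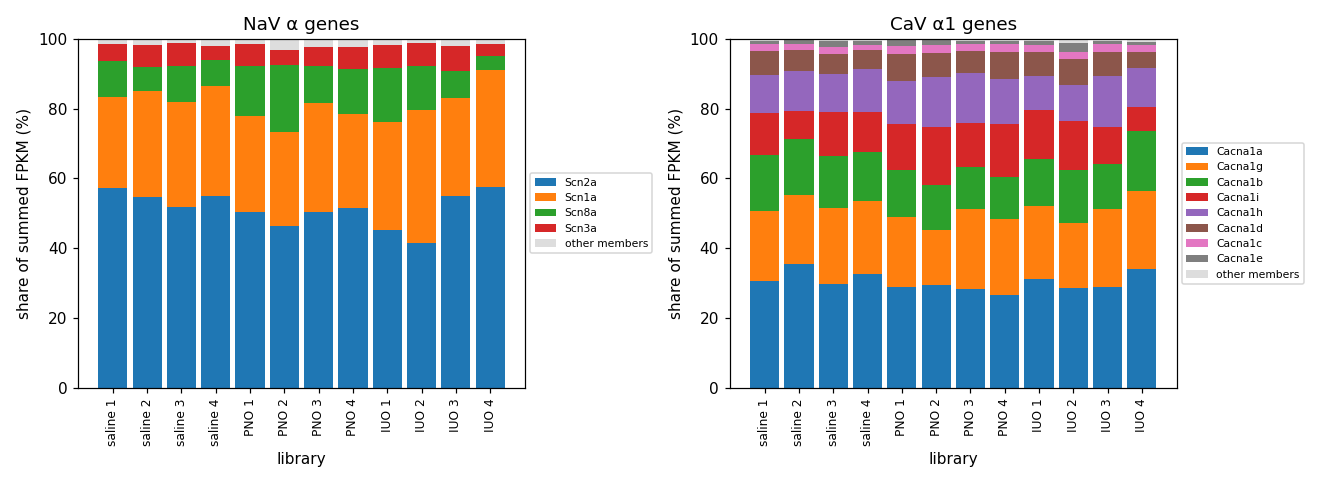
Share of the summed FPKM (%) of each sodium channel α gene (left) and calcium channel α1 gene (right) in each library, with the remaining genes of the family in grey. Scn2a takes 41.6% to 57.6% of the NaV α sum and Cacna1a 26.5% to 35.3% of the CaV α1 sum.

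The first comparison asked how postnatal exposure differed from saline. No channel gene passed an adjusted p under 0.05 in edgeR's quasi-likelihood test with Benjamini-Hochberg adjustment, and neither did any other of the 14170 genes (0% called). At an unadjusted p under 0.05, 966 genes were higher in PNO (6.82%) and 598 lower (4.22%). Of the 29 channel genes 7 were higher at that level and 0 lower. Without IUO 4, 1291 of all genes were higher and 976 lower, and 9 members were higher and 0 lower. Log2 fold changes were positive for 25 of 29 members, against 51.2% of all genes, with a median of 0.22 against 0.01. With the striatal and bulb marker levels as covariates 1 member was higher at the unadjusted level, beside 301 of all 14170 genes. In that fit 19 of 29 members were positive, with a median of 0.11 against 0.01 over all genes. Without the 4 libraries with raised striatal markers 5 members were higher, beside 579 of all 14170 genes. There 22 members were positive, with a median of 0.12 against 0.00 over all genes. With DESeq2 on the same counts 117 genes passed (0.826%), and 3 of the 29 members did: Cacna1c, Cacna1h and Cacng5. The members were chosen with results of these data known, and their transcripts are longer than most, so these counts are a description.

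Most of the 7 were pores of calcium channels. All 8 tested α1 genes had a positive log2 fold change, from 0.10 (Cacna1b) to 0.75 (Cacna1i), and 5 of the 8 had an unadjusted p under 0.05. In 6 members every PNO library lay above every saline library (5.17% of all genes did so). They were the L-type genes Cacna1c and Cacna1d, the T-type genes Cacna1h and Cacna1i, the P/Q-type gene Cacna1a, and Cacng5. No member lay wholly below saline (4.66% of all genes did). The summed inhibitory neuron markers (7 of 7 with counts) were also apart, at 450 to 575 CPM in saline and 595 to 620 CPM in PNO, and their part in these differences was not tested.

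Cacna1c, an L-type pore that couples calcium entry to gene transcription, read 16.7, 12.9, 17.5 and 13.3 CPM in saline 1 to 4 and 23.8, 24.3, 20.9 and 23.3 CPM in PNO 1 to 4. The lowest PNO library was above the highest saline library. The log2 fold change was 0.61 ± 0.13 (SE; 1.53-fold), with an adjusted p of 0.305 in edgeR and 0.0147 in DESeq2. Over 25 alternative analyses the adjusted p ran from 0.0147 to 1.00 and the log2 fold change from 0.35 to 0.69. Cacna1d, the L-type pore that opens at more negative voltages, read 30.1, 25.1, 29.7 and 26.3 CPM in saline and 44.6, 43.9, 37.4 and 49.9 CPM in PNO. Here too the groups did not overlap. Its log2 fold change was 0.66 ± 0.21 with an adjusted p of 0.355 in edgeR, and of 0.0311 when IUO 4, a library with a low Cacna1d level, was left out of the shared estimate of spread. That fit called 19 genes (0.134%), of which Cacna1d was the 1 member.

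The T-type pores, which open near rest and support rhythmic firing, were measured in 3 genes. Cacna1h read 48.1, 47.4, 56.0 and 58.3 CPM in saline and 70.0, 86.2, 82.6 and 81.1 CPM in PNO, again without overlap. Its log2 fold change was 0.61 ± 0.14 (1.53-fold), with an adjusted p of 0.305 in edgeR and 0.0176 in DESeq2. Cacna1i read 45.6, 27.6, 53.6 and 45.6 CPM in saline and 63.0, 85.4, 62.4 and 80.0 CPM in PNO, with saline 2 lowest of all 8 and no overlap. The log2 fold change was 0.75 ± 0.28 and the adjusted p in edgeR 0.409. Cacna1g, the most abundant of the 3, read 90.8, 83.1, 113 and 101 CPM in saline and 117, 98.0, 136 and 139 CPM in PNO. PNO 2 fell inside the saline range. For Cacna1g the log2 fold change was 0.34 ± 0.14, the adjusted p in edgeR 0.421, and without the 4 libraries with raised bulb markers, which leaves PNO 2 as the only PNO library, the value was 0.00.

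The presynaptic pores differed less. Cacna1a read 171 to 195 CPM in saline and 206 to 226 CPM in PNO, a log2 fold change of 0.20 ± 0.09 with an unadjusted p of 0.0522 and an adjusted p of 0.457 in edgeR. Cacna1b, the N-type pore, read 79.5 to 90.6 CPM in saline and 82.6 to 93.0 CPM in PNO, and the ranges overlapped. Cacna1e, the R-type pore, was the lowest tested member by mean FPKM, and read 3.49 to 8.03 CPM in saline and 3.62 to 8.23 CPM in PNO, which overlapped.

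**Figure D3:**
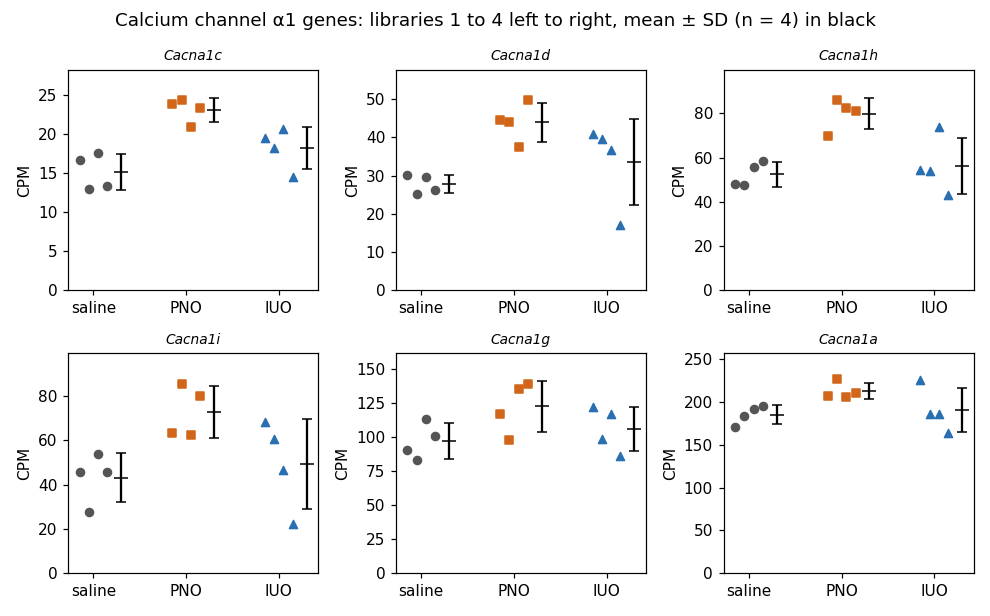
CPM (linear axis from 0) of 6 calcium channel α1 genes in saline, PNO and IUO, with libraries 1 to 4 from left to right in each group and the mean ± SD (n = 4) in black. In all panels but Cacna1g every PNO point lies above every saline point, and IUO 4 is the lowest IUO point in each panel.

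Among the auxiliary subunits of calcium channels only Cacng5 had groups that did not overlap. The 3 tested α2δ genes, which include the gabapentinoid targets Cacna2d1 and Cacna2d2, had log2 fold changes of 0.21 to 0.73 with SEs of 0.16 to 0.49, and none had an unadjusted p under 0.05. The 4 β genes ran from 0.00 (Cacnb1) to 0.70 (Cacnb4), again with no p under 0.05. Of the TARP genes, Cacng2 (stargazin), Cacng3, Cacng4, Cacng7 and Cacng8 lay between -0.05 and 0.25.

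Cacng5, a type II TARP, read 6.17, 5.46, 4.20 and 4.06 CPM in saline 1 to 4 and 12.9, 7.51, 11.4 and 14.5 CPM in PNO 1 to 4. The groups did not overlap, and PNO 2 was the lowest of the PNO libraries. This was a 2.33-fold difference (log2 fold change 1.22 ± 0.31), with an adjusted p of 0.305 in edgeR and 0.0200 in DESeq2. Cacng5 moved with the olfactory bulb markers across groups. The 4 libraries with raised bulb markers read 9.32 to 14.5 CPM and the other 8 read 2.71 to 7.51 CPM. No other tested member was apart between these sets of libraries, and the share of all genes that were was not counted. PNO 2, the PNO library without raised bulb markers, read 7.51 CPM against a saline maximum of 6.17. Without the 4 libraries the log2 fold change was 0.58, and with the striatal and bulb marker levels as covariates it was 0.14, with an adjusted p of 1.00 in edgeR.

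With the same covariates the log2 fold changes of the pores in PNO were 0.03 for Cacna1d, 0.19 for Cacna1h, 0.28 for Cacna1i and 0.38 for Cacna1c. Dropping saline 2, PNO 2, IUO 1 and IUO 2, whose striatal markers were raised, gave 0.62, 0.53, 0.50 and 0.52 in the same order. Dropping the 4 with raised bulb markers gave 0.65, 0.70, 0.97 and 0.67, with PNO represented by PNO 2 alone and its spread taken from the other groups. The covariates and the PNO label overlap, since 3 of the 4 PNO libraries and no saline library had raised bulb markers.

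Of the 8 tested sodium channel genes 6 were positive in PNO, with a median log2 fold change of 0.10. Scn3b, a β subunit joined to the pore without a covalent bond, read 165, 148, 144 and 142 CPM in saline and 198, 213, 156 and 172 CPM in PNO. PNO 3 lay inside the saline range. Its log2 fold change was 0.30 ± 0.10, with an adjusted p of 0.355 in edgeR. Scn8a read 25.7, 15.7, 26.4 and 16.9 CPM in saline and 43.1, 56.2, 22.5 and 32.5 CPM in PNO. PNO 3 again lay inside the saline range, and the log2 fold change was 0.86 ± 0.43 with an adjusted p of 0.481 in edgeR. For Scn1a and Scn2a the log2 fold changes were 0.05 ± 0.17 and -0.01 ± 0.10.

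**Figure D4:**
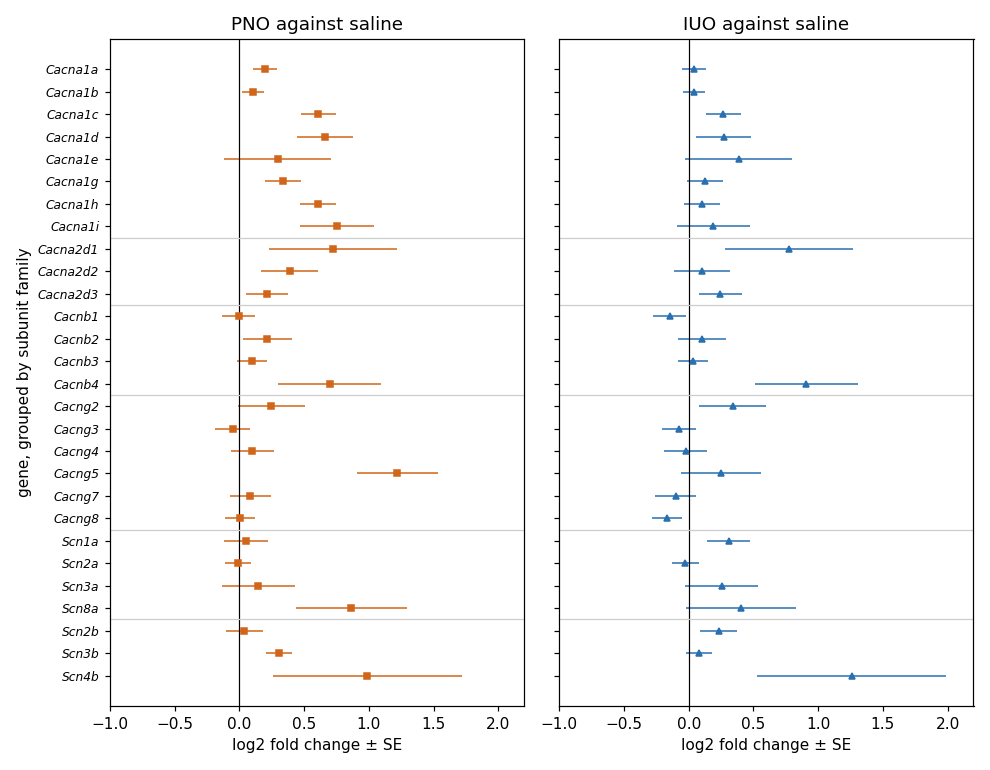
Log2 fold change ± SE from edgeR for the tested channel genes reported here in PNO against saline (left) and IUO against saline (right); both panels use the same 4 saline libraries. All 8 α1 genes lie right of 0 in both panels, with a median of 0.47 in PNO and 0.16 in IUO, and no gene passed an adjusted p under 0.05.

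The second comparison set in utero exposure against the same 4 saline libraries, so its values are not independent of those above. edgeR called no gene (0% of 14170) at an adjusted p under 0.05, and 327 genes were higher (2.31%) and 243 lower (1.71%) at an unadjusted p under 0.05. DESeq2 called 11 genes (0.0776%), of which 0 were members. Among the 29 members 1 was higher at the unadjusted level and 0 were lower. Single libraries moved these counts: 5 members were higher without IUO 4, 4 without IUO 3 and 3 without saline 3. In the same order, 733, 391 and 276 of all 14170 genes were higher and 543, 294 and 213 lower. No member's groups were apart in either direction (1.15% of all genes lay wholly above and 1.03% wholly below saline). Positive log2 fold changes were found in 23 of 29 members, against 56.4% of all genes, with a median of 0.19. With saline 2, PNO 2, IUO 1 and IUO 2 (striatal markers raised) left out, the median was -0.10.

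Cacnb4, a β subunit of presynaptic calcium channels, read 6.34, 6.16, 10.0 and 5.88 CPM in saline 1 to 4 and 16.2, 22.6, 7.91 and 6.77 CPM in IUO 1 to 4. IUO 1 and IUO 2 stood above all saline libraries, and IUO 3 and IUO 4 lay within their range. The log2 fold change was 0.91 ± 0.40, with an adjusted p of 0.998 in edgeR. It was -0.02 when the same 4 libraries were left out. Cacna1c read 19.4, 18.2, 20.6 and 14.5 CPM in IUO, and only IUO 4 fell inside the saline range of 12.9 to 17.5. Its log2 fold change was 0.27 ± 0.13, with an adjusted p of 0.998 in edgeR.

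The largest log2 fold change of a member in IUO was that of Scn4b. This gene, a β subunit bound to the pore by a disulfide bridge and abundant in striatal projection neurons, read 27.4, 57.5, 38.2 and 43.9 CPM in saline, 39.5, 222, 36.3 and 33.5 CPM in PNO and 106, 238, 27.9 and 27.4 CPM in IUO. The 4 libraries with raised striatal markers read 57.5 to 238 CPM and the other 8 read 27.4 to 43.9 CPM, with no overlap. No other tested member was apart between these sets of libraries, and the share of all genes that were was not counted. Scn4b was 1.26 ± 0.73 higher in IUO and 0.99 ± 0.73 higher in PNO on the log2 scale, with adjusted p of 0.998 and 0.624 in edgeR. Without those 4 libraries the values were -0.40 and 0.00. Its close neighbour Scn2b read 205 to 303 CPM in saline, 219 to 298 in PNO and 238 to 328 in IUO.

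**Figure D5:**
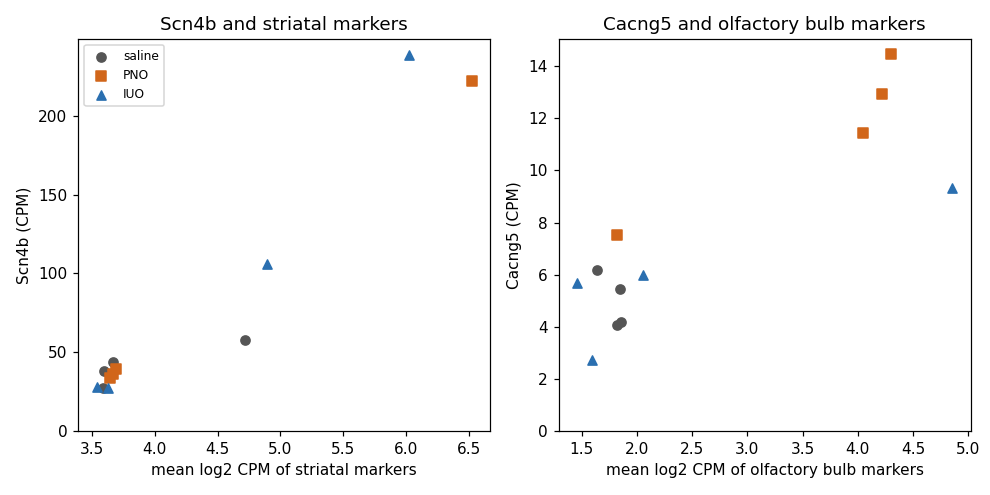
Left, Scn4b (CPM) against the mean log2 CPM of 11 striatal markers; right, Cacng5 (CPM) against the mean log2 CPM of 9 olfactory bulb markers; 1 point per library, coloured by group. The 4 libraries with raised striatal markers are the highest in Scn4b (57.5 to 238 CPM) and the 4 with raised bulb markers are the highest in Cacng5 (9.32 to 14.5 CPM).

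Scn1a read 82.2, 85.9, 97.4 and 91.2 CPM in saline and 117, 152, 75.9 and 95.8 CPM in IUO. IUO 2 was the highest library and IUO 3 the lowest. IUO 2 also had summed choroid plexus markers of 210.5 CPM, against 5.24 to 26.2 CPM in the other libraries. The part of these markers in the member values of IUO 2 was not tested. For Scn1a the log2 fold change was 0.31 ± 0.17 with an adjusted p of 0.998 in edgeR, and -0.07 without saline 2, PNO 2, IUO 1 and IUO 2. The summed oligodendrocyte markers (11 of 11 with counts) were 11784 to 16261 CPM in these 4 libraries and 6745 to 9464 CPM in the other 8, and their part in these differences was not tested.

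IUO 4 stood apart from the other IUO libraries in several members. It had the lowest Cacna1d of all 12 libraries (17.0 CPM, against 36.7 to 41.0 in IUO 1 to 3), the lowest Cacna1i (22.1 CPM) and the lowest Scn8a (9.07 CPM), and the highest Cacng2 (36.1 CPM). The median of the members in that library lay 0.31 below their mean over libraries on the log2 scale. IUO 4 also had the lowest of 12 rank correlations between transcript length and a gene's log2 CPM relative to its mean over libraries. The Spearman value was -0.36 over 14049 non-independent genes, against -0.29 to 0.32 in the others. The tested members' transcripts are longer than most. The part of transcript length in the low member values of IUO 4 was not tested.

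The third comparison set the exposures against each other. edgeR called no gene (0% of 14170), with 520 genes higher in IUO (3.67%) and 433 lower (3.06%) at an unadjusted p under 0.05, and DESeq2 called 8 genes (0.0565%), of which 0 were members. Of the 29 members 1 was higher at the unadjusted level and 4 were lower. Without IUO 4, 2 members were lower and 0 higher, beside 302 genes lower and 301 higher of 14170. Without IUO 1, 6 members were lower and 1 higher, beside 615 genes lower and 819 higher. The 4 members lower with all 12 libraries were Cacna1h (-0.51 ± 0.14), Cacng5 (-0.97 ± 0.31), Cacna1c (-0.34 ± 0.13) and Scn3b (-0.23 ± 0.10). Each had an adjusted p of 0.714 in edgeR. Cacna1h read 54.5, 54.0, 73.7 and 43.1 CPM in IUO, with IUO 3 inside the PNO range of 70.0 to 86.2. Cacng5 read 5.99, 5.68, 9.32 and 2.71 CPM in IUO, and only IUO 3, the IUO library with raised bulb markers, entered the PNO range. Cacna1c was the only member whose IUO libraries all lay below the PNO libraries (1.78% of all genes did), by a margin of 20.6 against 20.9 CPM, and none had all its IUO libraries above the PNO libraries (1.85%). Positive values were found in 10 of 29 members, against 50.8% of all genes, and the median was -0.12.

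Partners of these channels were examined in 5 lists, and edgeR's adjusted p was not below 0.05 for any of their genes in any of the 3 comparisons. In PNO against saline, 4 of 23 tested calcium channel partners were higher and 0 lower at an unadjusted p under 0.05, against 6.82% higher and 4.22% lower of all genes. They included Unc13a, which primes synaptic vesicles (104 ± 12 CPM in saline and 161 ± 23 in PNO, SD, n = 4, with no overlap), and Bsn, the active-zone scaffold bassoon (31.0 ± 9.0 and 54.5 ± 14). Of 17 sodium channel partners and initial segment proteins 3 were higher and 2 lower. In this list 1 gene lay wholly above saline and 1 wholly below, against 5.17% and 4.66% of all genes. The values of the 2 lower genes are not reported here. Ank3, the ankyrin that anchors sodium channels, had 116 ± 11 CPM in saline and 156 ± 29 in PNO, and Sptbn4, the spectrin beneath it, 229 ± 19 and 258 ± 12.

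Of 4 tested genes of the sodium leak channel complex, which carries a steady inward current at rest, 3 were higher and 0 lower. They were the auxiliary subunit genes Fam155a (29.2 ± 2.4 CPM in saline and 41.0 ± 2.7 in PNO), Unc79 (55.4 ± 4.7 and 69.2 ± 7.6) and Unc80 (13.8 ± 4.4 and 21.6 ± 7.6). These counts and the next ones stand against the same 6.82% and 4.22% of all genes. Of 38 potassium and HCN channel genes 4 were higher and 0 lower, led by Dpp6, an auxiliary subunit of A-type potassium channels (97.5 and 146 CPM on average). Of 13 genes of calcium release and extrusion 2 were higher and 0 lower, the plasma membrane calcium pump gene Atp2b1 (146 and 200.5 CPM) and the sodium-calcium exchanger gene Slc8a3 (21.7 and 28.5 CPM). In IUO against saline the 5 lists had 1, 1, 0, 3 and 1 genes higher and 0, 0, 0, 1 and 0 lower, in the order calcium partners, sodium partners, leak complex, potassium channels and calcium handling, against 2.31% higher and 1.71% lower of all genes. In IUO against PNO they had 1, 1, 0, 1 and 0 higher and 1, 2, 0, 2 and 1 lower, in the same order, against 3.67% and 3.06% of all genes.

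Transcript length moved with these differences. It was computed from the counts and FPKM of each gene and is not the span of the gene on the chromosome. Across 14049 genes with a length, which are not independent replicates, the PNO log2 fold change had a Spearman rho of 0.34 with transcript length. For IUO against saline the rho was 0.09, and for IUO against PNO -0.29. The 29 tested members had long transcripts, with a median of 6207 bases against 3133 over the 14049 genes. With the length trend of each library removed, PNO against saline had 6 members higher at an unadjusted p under 0.05 (5.32% of all genes) in place of 7, and the median of the members was 0.16. Cacna1c then had a log2 fold change of 0.47, Cacna1h 0.49, Cacna1d 0.54, Cacna1i 0.65 and Cacna1g 0.23. Cacna1a had 0.07, and Cacng5, with a transcript length of 2183 bases, 1.26.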

How the data were processed

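The members and gene lists were chosen with earlier results of these data known. Poly(A) stranded libraries of 12 prefrontal cortex samples were aligned with HISAT2 and quantified with StringTie, per the submitters' processing notes. Build, annotation release, tool versions and tool settings were not given in the sources used here. Each gene of the deposited table has whole-number counts per gene and library, per the file headers. It also has FPKM, scaled by the authors to transcript length and library size. Replicate libraries of a group are separate animals.

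Genes averaging 0.5 FPKM or more were tested with edgeR's quasi-likelihood test on counts, with TMM factors and 1 model of 3 groups over 12 libraries. Tests were two-sided, with Benjamini-Hochberg adjustment over 14170 genes in each of 3 comparisons. CPM and shares were computed from the deposited counts and FPKM. Every member could be named, but values of some genes are not reported here. Members with an unadjusted p under 0.05, or the 5 smallest p where fewer passed, got full statistics, and each partner list up to 3 genes; Scn8a was added for its spread after its values were seen. Libraries with raised regional markers were those more than 1 log2 unit above the lowest library.

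Alternatives were DESeq2, limma on log2(FPKM + 0.5, 0.1 or 1), no filter, a filter at 2 FPKM, median-of-ratios factors, 2 groups only, robust estimation, the replicate number as a block, marker covariates, removal of a length trend, and leaving out each library. Leaving out the 4 libraries with raised striatal or bulb markers was added after seeing the data. Correlations of same-numbered deviations between groups were all positive and ran from 0.015 to 0.41 (PNO 2 and IUO 2). Differently numbered libraries were not compared, so whether equal numbers pair the animals was not settled. Software was edgeR 4.0.16, DESeq2 1.42.0 and limma 3.58.1 in R 4.3.3, with pandas 2.3.3 and matplotlib 3.10.9 in Python 3.11.15, and the test was tested on simulated data. Promoter sequences are RefSeq's.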

Additional observations from a re-analysis of the deposited data

Results flagged for a closer look

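In 8 of 87 groups of 4 libraries, 1 library stood so far from the other 3 that its gap, as a share of the group's range, exceeded Dixon's critical value. Chance flags about 1 in 20 such groups. In PNO, PNO 2 stood apart in Scn4b (222 CPM against 33.5 to 39.5 in the others, a gap of 0.914 of the range) and had raised striatal markers. PNO 3 stood apart in Cacna1b (82.6 against 91.8 to 93.0, 0.891) and in Cacng8 (113 against 95.8 to 98.2, 0.853). In IUO, IUO 4 was low in Cacna1d (17.0 against 36.7 to 41.0, 0.873) and in Cacng4 (53.5 against 90.8 to 99.1, 0.857), and IUO 2 was low in Cacng3 (155 against 186 to 192, 0.855). In saline, saline 4 was low in Cacnb2 (20.8 against 27.0 to 28.3, 0.845) and saline 3 high in Cacnb4 (10.0 against 5.88 to 6.34, 0.859).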

How the results depend on the processing

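The 17 log2 fold changes of members singled out in a comparison had 438 alternative values. Of these, 430 kept direction and side of the threshold, 4 passed it and 4 changed sign. No member was called in the main edgeR fit, so a value of the same sign that stayed uncalled counted as kept, whatever its size. With marker covariates Cacna1d in PNO fell from 0.66 to 0.03 and Cacng5 from 1.22 to 0.14, and both counted as kept. The 430 therefore do not measure how stable the sizes were. Those that passed were Cacna1c (0.61), Cacna1h (0.60) and Cacng5 (1.21) in PNO with DESeq2, and Cacna1d (0.66) in PNO without IUO 4. The sign changed for Cacna1g in PNO (-0.0013) without the libraries with raised bulb markers, and for Cacnb4 (-0.0154), Scn1a (-0.0725) and Scn4b (-0.40) in IUO without those with raised striatal markers; these left-out sets leave PNO or IUO fewer libraries. Cacna1c and Cacnb4 have no value at a mean FPKM of at least 2.

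edgeR called 0 genes in each comparison. In PNO against saline, DESeq2 called 117 genes and 3 members, limma 1 gene at each pseudocount, the fit of 2 groups only 11, and the fit without the libraries with raised bulb markers 3. Leaving out each library gave 0 to 19 genes and 0 to 1 members, with 19 without IUO 4 and 1 without saline 2. In IUO against saline, DESeq2 called 11, leaving out each library 0 to 1, the fit without raised striatal markers 4 and that without raised bulb markers 1. In IUO against PNO the values were 8, 0 to 1, 3 and 3. The member median in IUO against saline was -0.0136 with marker covariates and -0.096 without raised striatal markers, and in PNO against saline 0.11 and 0.12. The cause was not tested.

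Leaving out each library gave member medians of 0.17 to 0.28 in PNO against saline, 0.0856 to 0.21 in IUO against saline and -0.17 to -0.0423 in IUO against PNO. With the replicate number as a block, edgeR called 0 genes and 0 members in each comparison, with medians of 0.20, 0.14 and -0.11. Whether the same numbers pair the animals was not settled. Shares on counts were 34.6% for Cacna1a, 72.2% for Cacna2d3 and 55.8% for Cacnb3.

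With 4 animals a group from 2 dams, littermates cannot be told apart from independent animals. At 49227533 counts or more, depth limits mainly the 11 untested members.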
